A study of Mus musculus with 4 samples.

Results

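The genes described here encode the proteins of the mitochondrial ribosome. They were all rows of the deposited expression tables whose symbol is Mrpl or Mrps followed by digits, with 1 trailing letter allowed, and they numbered 77 of 24411 genes. By symbol, 48 belong to the large subunit (Mrpl) and 29 to the small subunit (Mrps). RNA sequencing was done on B220+ B cells, which were sorted by flow cytometry out of mouse bone marrow from the tibiae and femur. There were 2 libraries from mice labelled Arid5b overexpression and 2 libraries from mice labelled wildtype. The labels give no age, strain, promoter, driver line or treatment for either genotype, and do not say whether each library came from a separate animal, so p-values measure only the spread between these samples, which may be technical. Arid5b belongs to the family of ARID proteins, which bind AT-rich DNA.

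The mitochondrial ribosome translates the few messages of the mitochondrial genome, all of which encode subunits of the oxidative phosphorylation complexes. Its RNAs are mitochondrial, but every one of its proteins is encoded in the nucleus, made in the cytosol and imported. Part of these proteins descend from proteins of the bacterial ribosome and carry their numbers, and the rest were added in mitochondria. B cell precursors in bone marrow alternate between dividing and resting stages, and mitochondrial content and respiration are known to be higher in dividing cells.

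Arid5b itself went against the label of 1 library. It had 58127 and 2770 reads in overexpression-labelled libraries 1 and 2, against 2993 and 2465 reads in wildtype libraries 1 and 2. Only overexpression-labelled library 1 stood above the wildtype pair, by 4.41 on the deposited log2 scale (SE 0.126, limma adjusted p = 1.28e-11). Overexpression-labelled library 2 differed from wildtype by -0.22 (SE 0.145, limma adjusted p = 0.493). Each library labelled overexpression was therefore also set alone against the wildtype pair. Such a fit compares that library, not the genotype, and its estimate of spread rests on the wildtype pair together with limma's prior across genes. Both of these fits share the wildtype pair.

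The libraries held between 14196665 and 20356404 reads assigned to genes, and the ribosomal RNA precursor Rn45s took between 25.7% and 30.5% of them. The B lineage markers were detected in all 4 libraries, but their levels differed in overexpression-labelled library 1. Of 10 B lineage genes, 3 were higher and 6 lower there than in wildtype. Ptprc, which encodes B220, had 5683 and 38260 reads in overexpression-labelled libraries 1 and 2, against 35704 and 27790 in the wildtype libraries. Neutrophil markers summed to 136 and 1465 CPM (reads of a gene scaled by the total of its library) in overexpression-labelled libraries 1 and 2, against 6.35 and 101 CPM in wildtype libraries 1 and 2. In bulk samples, fewer cells of a type and less RNA per cell cannot be told apart.

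The start regions of 5 genes are shown because they belong to 3 of the largest rises in overexpression-labelled library 1, to the only fall there, and to 1 of a pair of these genes that start head to head. They are the RefSeq sequences from 250 bases before to 50 bases after the annotated start, on GRCm38.p6, and 68 of the 77 genes had one. Capitals mark a match to 1 of 4 motifs that were searched on both strands, CGCATGCG (core of the NRF1 motif), CCGGAAGT (ETS and GABP), AAGATGGC (YY1) and CACGTG (E box). NRF1, GABP and YY1 are known as regulators of nuclear genes for mitochondrial proteins. Mrpl34 (chr8:71464676-71464975, plus strand) encodes the counterpart of bacterial L34 and held none of the motifs. Mrpl18 (chr17:12916042-12916341, minus strand) encodes the counterpart of the bacterial protein that binds 5S ribosomal RNA, and held the ETS motif. Mrpl42 (chr10:95501900-95502199, minus strand) encodes a mitochondria-specific protein of the large subunit and held the YY1 motif. Mrps11 (chr7:78782881-78783180, plus strand) encodes the counterpart of bacterial S11 and held the YY1 motif in reverse; its window overlaps the start of Mrpl46 on the other strand. Mrpl17 (chr7:105811038-105811337, minus strand) encodes the counterpart of bacterial L17 and held the NRF1 core.
Mrpl34: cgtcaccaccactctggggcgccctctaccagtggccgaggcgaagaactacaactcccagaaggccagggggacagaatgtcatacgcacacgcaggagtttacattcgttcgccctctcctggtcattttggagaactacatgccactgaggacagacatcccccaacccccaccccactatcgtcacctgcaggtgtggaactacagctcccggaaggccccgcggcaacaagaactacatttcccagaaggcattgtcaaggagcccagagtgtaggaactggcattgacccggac
Mrpl18: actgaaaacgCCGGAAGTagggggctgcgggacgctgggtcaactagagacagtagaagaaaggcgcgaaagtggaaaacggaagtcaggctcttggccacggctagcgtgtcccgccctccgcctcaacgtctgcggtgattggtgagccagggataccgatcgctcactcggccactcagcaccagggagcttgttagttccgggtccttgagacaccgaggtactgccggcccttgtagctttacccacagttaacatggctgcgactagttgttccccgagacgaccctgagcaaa
Mrpl42: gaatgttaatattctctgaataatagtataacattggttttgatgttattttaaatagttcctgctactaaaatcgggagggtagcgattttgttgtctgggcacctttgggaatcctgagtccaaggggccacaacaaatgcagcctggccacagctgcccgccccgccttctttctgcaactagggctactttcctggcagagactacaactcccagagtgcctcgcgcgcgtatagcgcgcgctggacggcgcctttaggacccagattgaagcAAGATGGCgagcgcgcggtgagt
Mrps11: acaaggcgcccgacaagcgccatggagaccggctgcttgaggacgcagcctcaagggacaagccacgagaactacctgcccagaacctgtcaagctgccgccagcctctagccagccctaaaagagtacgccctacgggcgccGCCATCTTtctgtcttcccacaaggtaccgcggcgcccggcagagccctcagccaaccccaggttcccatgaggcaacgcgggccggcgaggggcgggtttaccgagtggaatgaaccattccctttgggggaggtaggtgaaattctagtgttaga
Mrpl17: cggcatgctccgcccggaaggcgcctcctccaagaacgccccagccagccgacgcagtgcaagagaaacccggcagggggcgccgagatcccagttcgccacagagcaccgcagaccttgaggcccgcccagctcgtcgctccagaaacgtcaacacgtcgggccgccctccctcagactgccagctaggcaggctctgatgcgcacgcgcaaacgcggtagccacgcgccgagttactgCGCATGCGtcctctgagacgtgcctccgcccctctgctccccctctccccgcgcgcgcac

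Across the 68 start regions, the YY1 motif stood in 12 (17.6%), against 2.88% of all 27025 mouse start regions in the same table and 4.88% of those of tested genes. The ETS motif stood in 11 (16.2%, against 4% of all and 8.64% of tested genes). The NRF1 core stood in 7 (10.3%, against 1.91% and 4.04%), and the E box in 5 (7.35%, against 7.24% and 10.3%). Hence 30 of 68 (44.1%) held at least 1 of the 4, against 14.6% of all start regions and 24.6% of those of tested genes, and no matches of different motifs overlapped. The median GC content was 58.2% for the mitochondrial ribosomal genes, 52.7% for all start regions and 60.7% for those of tested genes. These matches are a description of letters in a window, with no binding measured.

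In wildtype, the 77 genes spanned a wide range of levels and every gene was detected. Levels between genes are given as normalised reads (reads divided by the size factor of the authors' scaling) per kilobase of the principal transcript in GENCODE vM21. Mrpl52, a mitochondria-specific protein of the large subunit, had 2144 and 2482 in overexpression-labelled libraries 1 and 2, against 2083 and 1679 in wildtype libraries 1 and 2. It ranked 1st in both wildtype libraries and in overexpression-labelled library 2, and 4th in overexpression-labelled library 1, after Mrpl18, Mrpl34 and Mrps21. The next 4 by wildtype mean were Mrpl30 with 1379, Mrpl33 with 962, Mrpl39 with 891 and Mrpl4 with 675 normalised reads per kilobase, all in the large subunit; Mrpl4 is the counterpart of a bacterial protein that lines the tunnel of the growing chain. The lowest 5 were Mrpl51 with 60.8, Mrps5 with 57.2, Mrps35 with 53.2, Mrpl47 with 48.8 and Mrps6 with 42.0. Pseudogene copies (of Mrpl30, Mrpl51 and Mrps5) or exon bases shared with other genes (Mrpl33, Mrpl47 and Mrps6) make some levels at both ends uncertain. With the length of all annotated exons in place of the principal transcript the same 5 genes led in wildtype, while the lowest 5 changed in part. Since none of these genes fell below the filter on low reads, all 77 entered the fits with the 12617 genes tested.

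The balance of small to large subunit genes depended on how it was taken. The summed normalised reads of the small subunit symbols, divided by those of the large, were 0.428 and 0.397 in overexpression-labelled libraries 1 and 2, against 0.452 and 0.403 in the wildtype libraries. Without Mrpl17, the gene with the most reads in 3 of the 4 libraries, these ratios were 0.440 and 0.468 in overexpression-labelled libraries 1 and 2, against 0.514 and 0.476 in wildtype. The median small subunit gene over the median large subunit gene gave 0.702 and 0.796 in overexpression-labelled libraries 1 and 2, against 0.875 and 0.791 in wildtype. Library 1 was thus the lowest of the 4 on both of these measures, and within the range of the others in the ratio of all sums. The large subunit genes summed to 1289 and 677 CPM in overexpression-labelled libraries 1 and 2, against 603 and 663 CPM in wildtype libraries 1 and 2. The small subunit genes summed to 552 and 269 CPM in overexpression-labelled libraries 1 and 2, against 272 and 267 CPM in wildtype. Together the 77 genes took 0.184% and 0.0946% of the reads of overexpression-labelled libraries 1 and 2, against 0.0875% and 0.0930% in the wildtype libraries. Overexpression-labelled library 1 was the high one in each of these sums, and overexpression-labelled library 2 lay within 1.5-fold of both wildtype libraries. Without Rn45s in the total, the sums of all 77 genes were 2648 and 1319 CPM in overexpression-labelled libraries 1 and 2, against 1254 and 1251 CPM in wildtype.

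Mitochondrial ribosomal protein genes were higher in overexpression-labelled library 1 than in wildtype, in both subunits. By limma with Benjamini-Hochberg adjustment over all tested genes and a threshold of 0.05, 50 of the 77 rose, 1 fell and 26 did not pass. The background was 26.8% of all 12617 tested genes called higher and 34.4% called lower. In the large subunit 31 of 48 rose and 1 fell, and in the small subunit 19 of 29 rose and 0 fell. The median difference was 0.95 on the deposited log2 scale for the large subunit and 0.95 for the small, against -0.15 for all tested genes. Overexpression-labelled library 1 lay above both wildtype libraries in 70 genes, between them in 4 and below both in 3. The shares of all tested genes in these positions were not counted. The library 1 difference was above 0 in 74 of the 77 genes, and in 5717 of all 12617 tested. In normalised reads the median fold over the wildtype mean was 2.14, with a range over the 77 genes of 0.354 to 19.9. In all, 39 of the 77 genes were at least 2-fold higher, against a background of 21.1% of all tested genes. Without the filter on low reads, limma called 5 of the 77 higher in library 1, Mrpl13, Mrpl18, Mrpl49, Mrps2 and Mrps28, and 0 lower; the background there was 8.43% of 17905 genes called higher.

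**Figure D1:**
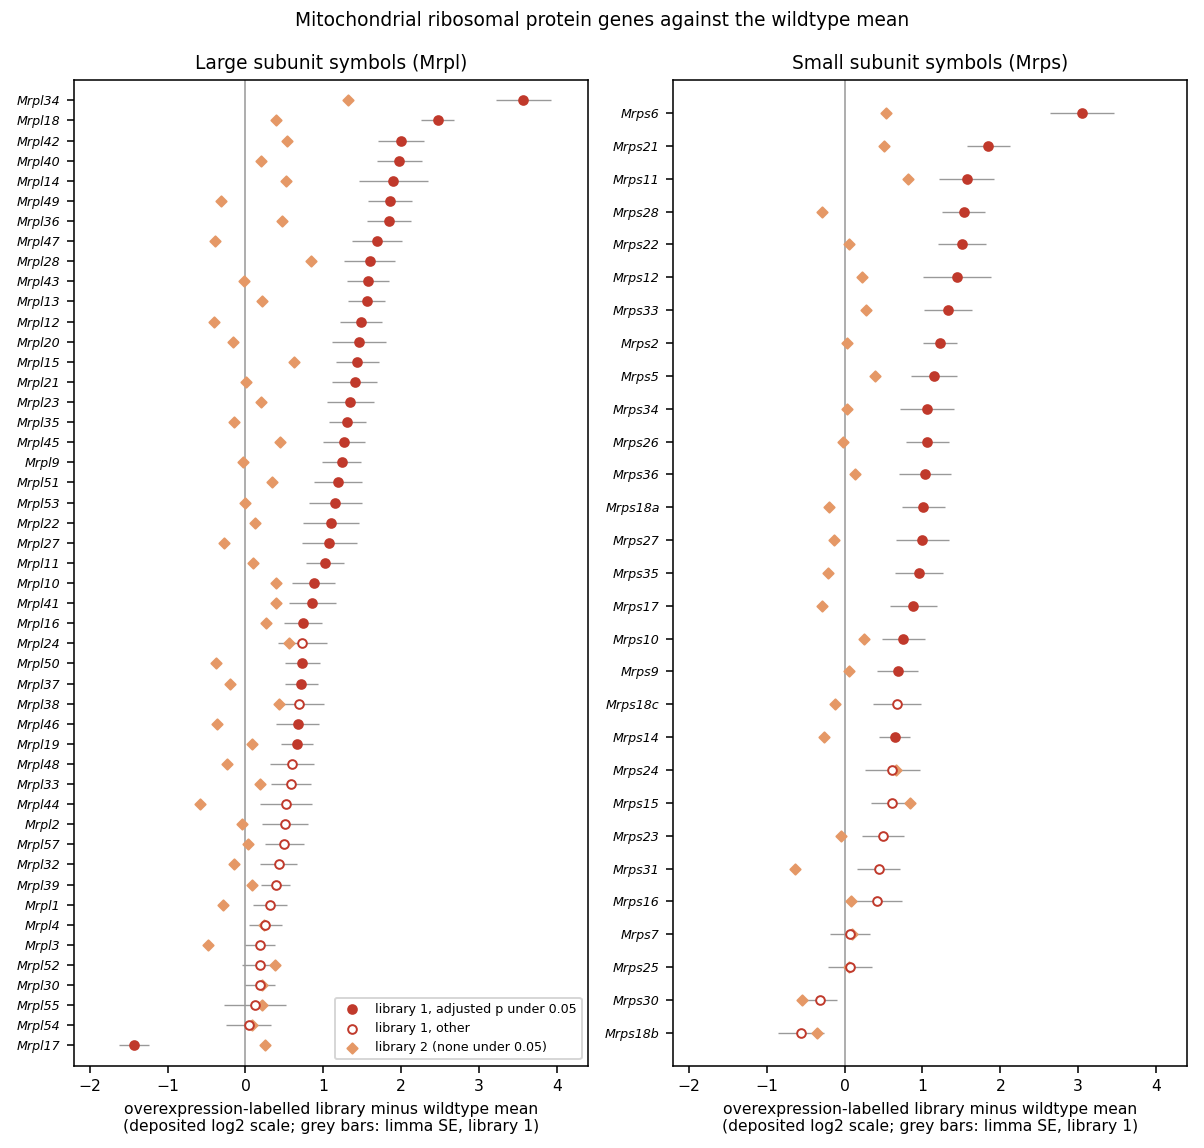
Difference from the wildtype mean on the deposited log2 scale for each of the 48 large subunit genes (left) and 29 small subunit genes (right), with overexpression-labelled library 1 as red circles (filled where the limma adjusted p was under 0.05; grey bars are the limma SE) and overexpression-labelled library 2 as orange diamonds. Most red circles lie right of 0 in both panels, with Mrpl17 alone filled on the left, and the orange diamonds scatter around 0.

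Mrpl34 had the largest difference. It had 587 and 123 reads in overexpression-labelled libraries 1 and 2, against 25 and 32 reads in wildtype libraries 1 and 2. After scaling these were 1377 and 242 normalised reads in the overexpression-labelled libraries, against 49.8 and 88.4 in wildtype. Both libraries labelled overexpression thus stood above both wildtype libraries, library 1 by far the most. Library 1 differed from the wildtype mean by 3.57 (SE 0.351, limma adjusted p = 1.54e-06) and was 19.9-fold higher in normalised reads. Library 2 differed by 1.31 (SE 0.394, limma adjusted p = 0.129), 3.50-fold higher, which did not pass.

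Mrps6, the counterpart of bacterial S6, had 269 and 34 reads in overexpression-labelled libraries 1 and 2, against 26 and 7 reads in wildtype libraries 1 and 2. Library 1 was high, and library 2 was close to wildtype library 1. The difference in library 1 was 3.05 (SE 0.406, limma adjusted p = 2.61e-05), and the low wildtype counts leave the 17.7-fold ratio imprecise. The lowest of the 77 genes per kilobase in wildtype, Mrps6 ranked 25th in overexpression-labelled library 1. In the annotation it shares 36.1% of its exon bases with Gm49711 and 18.8% with Slc5a3 on the same strand, and Slc5a3 had 244 and 525 reads in overexpression-labelled libraries 1 and 2, against 325 and 346 reads in the wildtype libraries.

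Mrpl18 had 3368 and 756 normalised reads in overexpression-labelled libraries 1 and 2, against 588 and 533 in wildtype. Its values in wildtype differed little, and library 1 stood apart from the other 3. The difference was 2.47 (SE 0.207, limma adjusted p = 3.36e-07), 6.01-fold. Of the 77 genes it had the most reads in overexpression-labelled library 1, whereas Mrpl17 had the most in the other 3 libraries. Tcp1, a subunit of the cytosolic chaperonin that shares 17 exon bases with Mrpl18 on the opposite strand, differed by 0.06 in library 1 (limma adjusted p = 0.704).

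Another 5 genes of the large subunit completed the 8 largest rises. Mrpl42 had 1161 and 384 normalised reads in overexpression-labelled libraries 1 and 2, against 293 and 207 in wildtype (library 1 difference 2.0, limma adjusted p = 5.71e-05). Mrpl40, a mitochondria-specific protein, had 1063 and 268, against 251 and 205 (1.98, limma adjusted p = 5.63e-05). Both genes were highest in library 1, with library 2 above the wildtype pair by a smaller margin. Mrpl14, whose bacterial counterpart sits at the face between the subunits, had 418 and 126 normalised reads in overexpression-labelled libraries 1 and 2, against 37.9 and 127 in wildtype (1.90, SE 0.439, limma adjusted p = 0.00215). Its wildtype libraries differed 3.36-fold, the widest ratio of wildtype library 2 to wildtype library 1 among the 77 genes. Mrpl49, a mitochondria-specific protein, had 1046 and 189 normalised reads in overexpression-labelled libraries 1 and 2, against 235 and 260 in wildtype (1.86, limma adjusted p = 7.52e-05). Mrpl36, the counterpart of the small bacterial protein L36, had 1044 and 364, against 235 and 263 (1.85, limma adjusted p = 7.84e-05). Library 1 was above both wildtype libraries for all 5 genes, while library 2 was above both for Mrpl42, Mrpl40 and Mrpl36, between them for Mrpl14 and below both for Mrpl49.

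Mrpl17 was the gene that fell. It had 1229 and 4072 normalised reads in overexpression-labelled libraries 1 and 2, against 2927 and 4010 in wildtype libraries 1 and 2. Library 1 lay below the other 3, and library 2 lay just above both wildtype libraries. The difference in library 1 was -1.44 (SE 0.193, limma adjusted p = 2.87e-05), a ratio of 0.354 to the wildtype mean. Mrpl17 held 1.86% and 10.7% of the reads of the 77 genes in overexpression-labelled libraries 1 and 2, against 8.33% and 11% in the wildtype libraries.

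**Figure D2:**
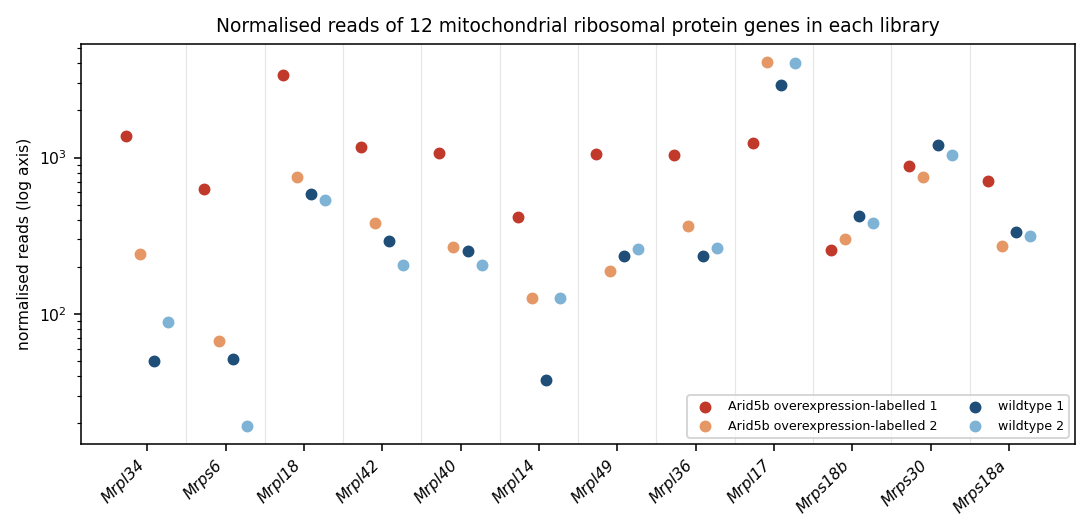
Normalised reads on a log axis of 12 mitochondrial ribosomal protein genes in each of the 4 libraries (red and orange, overexpression-labelled libraries 1 and 2; dark and light blue, wildtype libraries 1 and 2; 1 point per library, no error bars). The red point stands apart upwards for Mrpl34, Mrps6 and Mrpl18 and downwards for Mrpl17, and the other 3 points of a gene mostly lie together.

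Genes whose symbol and place differ were looked at apart. Mrps18a and Mrps30 carry small subunit symbols but their proteins sit in the large subunit, and the protein of Mrps36 is now known as a subunit of the 2-oxoglutarate dehydrogenase complex. Mrps18a had 303 and 139 reads in overexpression-labelled libraries 1 and 2, against 167 and 114 reads in wildtype (library 1 difference 1.01, limma adjusted p = 0.00631). Mrps36 had 230 and 134 reads, against 150 and 66 (1.03, limma adjusted p = 0.0156), so library 1 was the highest for both genes. The call of Mrps36 was also lost without a trend in the prior. Its counts are uncertain, since it has several pseudogene copies, among them Mrps36-ps1 of 99.3% identity over 306 bases. Mrps30 had 889 and 746 normalised reads in overexpression-labelled libraries 1 and 2, against 1209 and 1034 in wildtype, and its library 1 difference of -0.31 did not pass (SE 0.211, limma adjusted p = 0.213). With the 3 genes placed by structure, 32 of 50 large subunit genes were higher in library 1 and 17 of 26 small subunit genes.

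The 3 paralogues of the S18 family had different values. Mrps18b had 256 and 303 normalised reads in overexpression-labelled libraries 1 and 2, against 422 and 384 in wildtype, with a library 1 difference of -0.56 (SE 0.293, limma adjusted p = 0.114). Mrps18c had 493 and 260 normalised reads in overexpression-labelled libraries 1 and 2, against 337 and 243 in wildtype, with a library 1 difference of 0.68 (SE 0.307, limma adjusted p = 0.0706). Library 1 was thus lowest of the 4 for Mrps18b and highest for Mrps18c, without passing for either, while Mrps18a passed. Differences between the paralogues were not tested. Mrps18b shares 59.1% of its exon bases with the antisense gene Gm16279 and has a pseudogene copy, Gm13552, of 99.8% identity over 417 bases, so its counts are uncertain. Those of Mrps18c are uncertain too. It shares 18.5% of its exon bases with Gm43511 on the same strand and has a copy, Gm15946, of 96.0% identity over 277 bases.

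The counts of calls differed between the extremes of the wildtype range, in values that share the wildtype libraries with the ranking. Of the 5 highest per kilobase, 0 passed, with differences of 0.18 for Mrpl52, 0.18 for Mrpl30, 0.59 for Mrpl33, 0.39 for Mrpl39 and 0.25 for Mrpl4. Of the 5 lowest, all 5 rose by limma, Mrps6 by 3.05, Mrpl47 by 1.69, Mrps5 by 1.14, Mrpl51 by 1.19 and Mrps35 by 0.95. With level per kilobase taken from 1 wildtype library and difference from the other, Pearson's r across the 77 genes was -0.32 and -0.37 for the 2 choices, and with normalised reads not divided by length it was -0.57 and -0.68. The 20 genes lowest per kilobase in wildtype library 1 had a median difference of 1.29 from wildtype library 2, and the 20 highest had 0.82. Genes are not independent replicates, and low levels carry more counting error, so these correlations are a description. The SD of log2 normalised reads over the 77 genes was 0.795 and 1.04 in overexpression-labelled libraries 1 and 2, against 1.20 and 1.12 in the wildtype libraries. Per kilobase it was 1.10 and 1.16 in overexpression-labelled libraries 1 and 2, against 1.17 and 1.12 in wildtype, so the narrower spread of library 1 largely went once levels were divided by length.

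**Figure D3:**
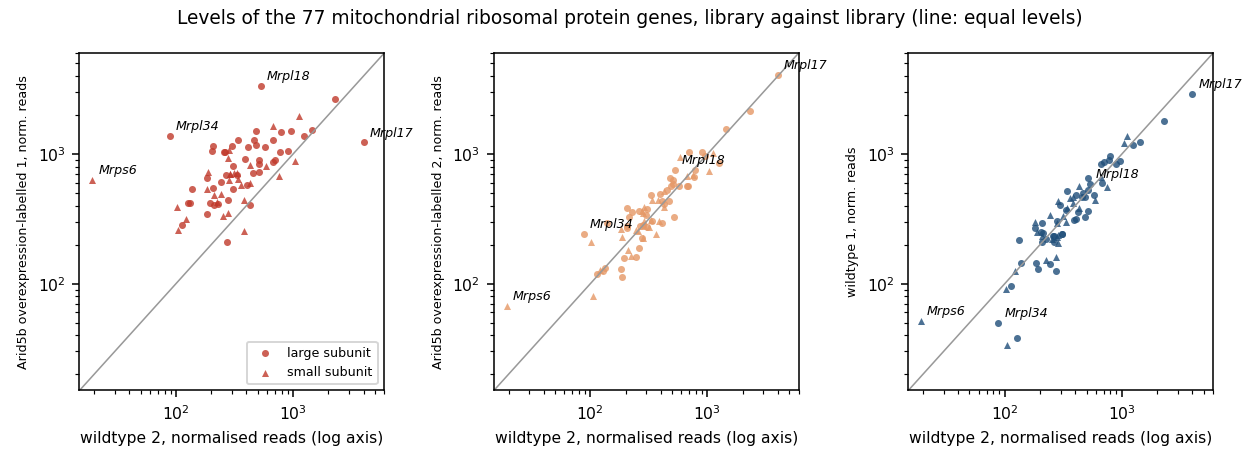
Normalised reads of the 77 genes on log axes, with overexpression-labelled library 1 (left), overexpression-labelled library 2 (middle) and wildtype library 1 (right) each against wildtype library 2; circles are large subunit genes, triangles small subunit genes, and the line marks equal levels. In the left panel most points lie above the line and farther above it at low levels (r of log2 levels 0.575), while the middle (0.912) and right (0.913) panels follow the line.

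No mitochondrial ribosomal protein gene passed in overexpression-labelled library 2. By limma 0 of 77 were called, against a background of 0.769% of tested genes called higher and 0.888% called lower. The smallest adjusted p was 0.129, and 7 of the 77 genes had an unadjusted p under 0.05, as did 2006 of all tested genes. With limma-voom on the reads, 2 genes passed as higher, Mrpl34 (1.91, adjusted p = 0.0286) and Mrps15 (0.93, adjusted p = 0.0322). The background of that fit was 371 of 12617 tested genes called higher (2.94%), so 2 of 77 was no excess. The median difference was 0.11 for the large subunit and 0.06 for the small, against 0.01 for all tested genes. Library 2 lay above both wildtype libraries in 33 genes, between them in 23 and below both in 21. The median fold was 1.06, and 3 genes reached 2-fold, namely Mrpl34, Mrpl28 and Mrps11, which were named after their values were seen. Neither these positions nor the 2-fold rises were counted over all tested genes. The library 2 difference was above 0 in 47 of the 77 genes, and in 6494 of all 12617 tested. The neutrophil markers, 9 of 9 tested, were higher in this library, and their part in these values was not tested.

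With both libraries labelled overexpression set against both wildtype libraries, 0 of the 77 genes passed by limma, as did 0 of all tested genes (a background of 0%). An unadjusted p under 0.05 was found for 1 of the 77, Mrpl34, and for 280 of all tested genes, and limma-voom called 0. Mrpl34 averaged 9.36 ± 1.60 in the overexpression-labelled libraries and 6.92 ± 0.35 in wildtype on the deposited log2 scale (SD, n = 2 each; difference 2.44, SE 0.874, limma adjusted p = 0.726). The median SD over the 77 genes was 0.650 between the overexpression-labelled libraries and 0.180 between the wildtype libraries. The groups did not overlap in 34 genes. Both overexpression-labelled libraries were above both wildtype libraries in 32 genes, 22 of the large and 10 of the small subunit, and such genes made up 19.6% of all tested genes. They were below both in 2 genes, Mrps30 and Mrps18b, against 23% of all tested genes. Leaving out 1 overexpression-labelled library gave the fit of the other library alone, as reported above, so it was no separate check.

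Genes with and without bacterial counterparts showed like shares of calls in library 1, and the difference between the sets was not tested. Of 48 genes with bacterial counterparts 32 rose (66.7%) and 1 fell, with a median difference of 1.02. Of 29 genes without them 18 rose (62.1%) and 0 fell, with a median of 0.86. The background was 26.8% of all tested genes called higher and 34.4% called lower. The sets together cover all 77 symbols, so they include Mrps36, whose protein belongs to another complex. Mrps11 and Mrpl46 start head to head. Mrps11 had 391.7 and 210.7 normalised reads in overexpression-labelled libraries 1 and 2, against 91.6 and 102.3 in wildtype (library 1 difference 1.57, limma adjusted p = 0.00183). Mrpl46, a mitochondria-specific protein, had 727 and 325, against 367 and 514 (0.67, limma adjusted p = 0.0496). The call of Mrpl46 was lost under 5 of 10 alternative settings (adjusted p from 0.0158 to 0.259) and that of Mrps11 only without the filter on low reads, and the pair was named after its values were seen. Library 2 lay above the wildtype pair for Mrps11 and below it for Mrpl46.

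Grouped by the motifs shown above, 9 of 12 genes with the YY1 motif rose in library 1 (75%, median 1.16). With the ETS motif 7 of 11 rose (63.6%, 1.06), and with the E box 3 of 5 (60%, 0.72). With the NRF1 core 3 of 7 rose (42.9%) and 1 fell, with a median of 0.43. Of the 38 genes with a start region but none of the 4 motifs 25 rose (65.8%), with a median of 0.81. The background was 64.9% of all 77 genes and 26.8% of all tested genes called higher. Differences between these sets were not tested.

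Some counts could be shared with other genes. In the annotation 15 of the 77 genes share at least 10% of their exon bases with another gene, and 20 have a pseudogene copy of at least 95% identity over at least 200 bases. Whether counting used strand, and how reads with several matches were treated, is not given in the sources used here. Of the 45 genes with neither feature, 28 rose and 1 fell in library 1, with a median difference of 0.74, against 0.95 for all 77. Mrpl34, Mrpl18, Mrpl40, Mrpl14, Mrpl49, Mrpl36 and Mrpl17 are among the 45, while Mrpl42 has the copy Gm6419 of 96.3% identity over 429 bases.

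Other parts of the mitochondrial translation apparatus are given by their counts in library 1, beside 26.8% of all tested genes called higher and 34.4% called lower; differences between lists were not tested, and most of these calls do not hold without the filter on low reads. Of 8 further genes listed for the mitochondrial ribosome, named outside the Mrpl and Mrps series, 5 rose (62.5%) and 2 fell (25%), with a median of 0.57. That list is broader than the structural proteins of the ribosome, since it holds Oxa1l and Lactb, which are both counted among its rises or falls. Differences in the list ran from -0.89 to 1.63, so the fall of Ptcd3 given below was not the largest. Ict1, a peptidyl-tRNA hydrolase built into the large subunit, rose by 1.63 (222 and 109 reads in overexpression-labelled libraries 1 and 2, against 69 and 45 in wildtype; limma adjusted p = 0.000884). Ptcd3, a small subunit protein with pentatricopeptide repeats, fell by 0.67 (652 and 1068 reads, against 1262 and 882; limma adjusted p = 0.00355). Dap3, a GTP-binding small subunit protein, differed by 0.48 (limma adjusted p = 0.0884).

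Among 13 mitochondrial translation factors, 6 rose (46.2%) and 2 fell (15.4%) in library 1 by limma, with a median of 0.65. The elongation factors Tufm and Gfm1 rose by 1.04 and 0.65, the recycling factor Mrrf by 1.10 and the deformylase Pdf by 1.12. The fall was 1.11 for Mtfmt, which formylates the initiator tRNA, and 0.96 for the recycling factor Gfm2. The elongation factor Tsfm rose by 1.97, on 81 and 31 reads in overexpression-labelled libraries 1 and 2, against 22 and 1 in wildtype.

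Of 26 assembly factors tested, 4 rose and 4 fell in library 1 (15.4% each way, below the share of all tested genes in both directions), with a median of 0.08. Noa1, a GTPase needed for mitochondrial translation, rose by 1.64 (826 and 366 reads in overexpression-labelled libraries 1 and 2, against 302 and 203 in wildtype; limma adjusted p = 2.51e-05). Nsun4, a methyltransferase of the small ribosomal RNA, fell by 1.04 (226 and 527 reads, against 567 and 424; limma adjusted p = 0.001). Its partner in large subunit assembly, Mterf4, rose by 0.86 (limma adjusted p = 0.0327), a call lost under 3 of 10 alternative settings. Tfb1m, which dimethylates the small ribosomal RNA, rose by 1.46 on 126 and 82 reads in overexpression-labelled libraries 1 and 2, against 21 and 44 in wildtype.

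Of 20 mitochondrial tRNA synthetases and amidotransferase subunits 4 rose and 4 fell (20% each way, again below the shares of all tested genes), with a median of 0.22, among them Rars2 (1.26) and Ears2 (-1.65). Of 13 genes for mitochondrial DNA upkeep and transcription 2 rose (15.4%) and 4 fell (30.8%, near the 34.4% of all tested genes), with a median of -0.07; scaled by library totals, 2 rose and 1 fell, and the median was 0.03. Polrmt, the mitochondrial RNA polymerase, rose by 0.80 (limma adjusted p = 0.0497), and Tfam, which packages mitochondrial DNA, fell by 0.44 (limma adjusted p = 0.0478), but these calls were lost under 3 of 10 alternative settings for Polrmt and 8 of 10 for Tfam. Polg2, the accessory subunit of the mitochondrial DNA polymerase, had the largest fall of these lists, with 81 and 1699 reads in overexpression-labelled libraries 1 and 2, against 1626 and 1519 reads in wildtype (-3.92, limma adjusted p = 3.16e-09).

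The nuclear-encoded subunits of oxidative phosphorylation, the complexes that the mitochondrial ribosome helps to build, were also higher in library 1. Of 74 tested, 66 rose (89.2%) and 0 fell, with a median difference of 1.09. Summed levels were 6630 and 3217 CPM in overexpression-labelled libraries 1 and 2, against 2857 and 3002 CPM in wildtype. In library 1, 8 of 76 proteins of the cytosolic ribosome were higher (10.5%, against 26.8% of all tested genes). Lower were 35 (46.1%, against 34.4%), and the median was -0.28. The difference between these lists was not tested, and most calls of both lists do not hold without the filter on low reads. Scaled by library totals, 10 cytosolic ribosomal proteins were higher and 15 lower, with a median of -0.14. Their sums were 43822 and 56538 CPM in overexpression-labelled libraries 1 and 2, against 47224 and 49208 CPM in wildtype. In library 2 the median differences were 0.17 for oxidative phosphorylation subunits and 0.26 for cytosolic ribosomal proteins, of which 73 of 76 lay above 0, and 0 genes of either list were called.

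**Figure D4:**
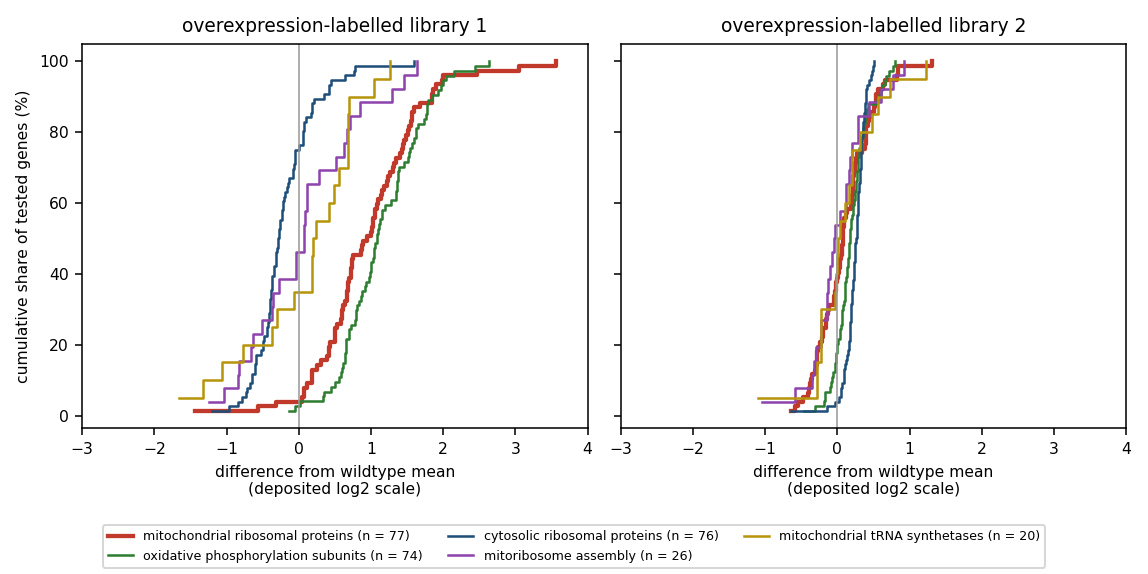
Cumulative share of tested genes by difference from the wildtype mean on the deposited log2 scale, for overexpression-labelled library 1 (left) and library 2 (right); each line is 1 gene list. In the left panel the lines of mitochondrial ribosomal proteins (median 0.95) and oxidative phosphorylation subunits (1.09) lie right of those of mitoribosome assembly factors (0.08), mitochondrial tRNA synthetases (0.22) and cytosolic ribosomal proteins (-0.28), and in the right panel the medians of the 5 lists run from -0.04 to 0.26, with the line of cytosolic ribosomal proteins (0.26) right of 0.

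Markers of dividing cells were also higher in library 1, where 26.8% of all tested genes were called higher. All 10 cycling genes were higher there, by a median of 3.69, and they summed to 3425 and 336 CPM in overexpression-labelled libraries 1 and 2, against 231 and 258 CPM in wildtype. Mki67, a marker of dividing cells, had 25752 and 2185 reads in overexpression-labelled libraries 1 and 2, against 1137 and 906 reads in the wildtype libraries. Of the B lineage markers, Pax5, Ebf1 and Cd79b were higher in library 1, and Ms4a1 had 149 reads in library 1 and 12012 in library 2, against 8257 and 8108 in wildtype. Markers of T and NK cells summed to 2.29 and 24.7 CPM in overexpression-labelled libraries 1 and 2, against 53.1 and 49.4 CPM in wildtype, with 3 of 7 at 0 in library 1. Monocyte markers summed to 37.2 and 253 CPM in overexpression-labelled libraries 1 and 2, against 76.9 and 84.7 CPM in wildtype, and plasmacytoid dendritic markers to 201 and 581 CPM, against 704 and 591 CPM. Erythroid markers stayed at or below 2.13 CPM in every library. The part of these markers in the values of the mitochondrial ribosomal protein genes was not tested.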

How the data were processed

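RNA from sorted B220+ B cells was sequenced in 2 libraries labelled Arid5b overexpression and 2 labelled wildtype, and samples were grouped by the genotype label, 1 of which is misspelled and was read as wildtype. The header of overexpression-labelled library 1 differs from its sample's title in 1 digit. STAR, HTSeq, DESeq2 and the genome build mm10 are named as the authors' tools and build, per the submitters' processing notes; versions, annotation, strand and settings are not given in the sources used here.

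The authors deposited log2 values with the form of a variance stabilizing transformation, in which genes lacking reads sit at 4.949. Raising 2 to each value and to that lowest value gives y and K, and the square of y - K divided by y gave reads divided by a size factor (normalised reads). Size factors of 0.426 and 0.508 for overexpression-labelled libraries 1 and 2, and of 0.502 and 0.362 for wildtype libraries 1 and 2, made 100% of values whole reads within 0.01. Reads, CPM and folds come from these recovered reads.

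Genes needed 10 reads at the median library size in 2 libraries and 15 in all. The deposited log2 values were tested in R 4.3.3 with limma 3.58.1 (limma-trend), two-sided, without a covariate, adjusted by Benjamini-Hochberg over all 12617 genes tested. Differences on this scale understate changes of genes with few reads. The fits were tested on simulated reads with 200 genes changed and a dispersion of 0.02. Far more genes were called in library 1 (3377 higher and 4344 lower), so the simulation does not cover such a case. Alternatives were another filter, pseudocount, scaling or prior, limma-voom on the reads, and leaving out libraries. Coordinates, lengths and overlaps come from GENCODE vM21 (GRCm38), pseudogene copies from a BLAST 2.17.0 search of its transcripts, and start regions from RefSeq.

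Named genes were the 8 largest rises and falls among called genes in library 1, the 5 highest and 5 lowest per kilobase in wildtype, the S18 family, Mrps30 and Mrps36. The members, the lists and this rule were chosen with earlier results of these data known. Mrpl47 was moved to the genes with bacterial counterparts after its values were seen. Mitochondrially encoded genes were not analysed here.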

Additional observations from a re-analysis of the deposited data

How the results depend on the processing

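No paired analysis was possible because the replicate numbers follow accession order and pair no samples. In overexpression-labelled library 1 against wildtype, 50 genes were higher and 1 lower. With no filter on low reads (17905 genes, of which 1510 were called higher and 1132 lower), 5 were higher (Mrpl13, Mrpl18, Mrpl49, Mrps2 and Mrps28) and 0 lower, and the cause was not tested. Under the other 9 settings, 42 of the 51 calls held wherever the gene was tested. The number higher ran from 42 without a trend in the prior to 60 with library totals without Rn45s. The background moved as well, with 22.6% and 31.2% of all tested genes called higher in these 2 settings. A scaling by library totals moved the median of all genes in library 1 by 0.12, and by totals without Rn45s by 0.17. Scaled by totals without Rn45s, the large subunit median was 1.13, and the 77 genes stood 1.11 above all genes, against 1.10 as reported. In library 2, limma-voom called 2 higher in place of 0, with 2.94% of all tested genes called higher in that setting. Over both libraries, leaving out 1 library gave a median difference from 0.11 to 0.95 for the large subunit and from 0.06 to 0.95 for the small. The ends of these ranges came from leaving out an overexpression-labelled library. Such a fit is the fit of 1 library reported above and no separate check. Leaving out a wildtype library in a fit of 1 library left 1 against 1, which gave medians of 0.94 and 0.89 in library 1 with no test. Without Rn45s in the total, the sums of all 77 genes were 2648 and 1319 CPM in overexpression-labelled libraries 1 and 2, against 1254 and 1251 CPM in wildtype libraries 1 and 2. Depth limits genes such as Mrps6, which had 7 reads in wildtype library 2.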

Other observations

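Of the 77 genes, 24 start within 500 bases of a tested gene on the other strand, head to head, and 22 of these partners are not mitochondrial ribosomal protein genes. In overexpression-labelled library 1, 7 of the 22 partners were higher (31.8%) and 5 lower (22.7%) than wildtype by limma, against 26.8% and 34.4% of all tested genes, with a median difference of 0.32, and the median over the 24 mitochondrial ribosomal genes was 0.86. Mrpl36 and Ndufs6, which encodes a subunit of complex I, differed by 1.85 and 1.63. Mrpl51 differed by 1.19 and its neighbour Ncapd2, a condensin subunit, by 3.07 (1531 and 194 reads in overexpression-labelled libraries 1 and 2, against 153 and 166 in wildtype). Mrpl49 differed by 1.86, while Fau, which encodes a protein of the cytosolic small ribosomal subunit, differed by -0.71 (limma adjusted p = 0.000273). Mrps34 differed by 1.06, while Eme2, a subunit of a DNA nuclease, had 28 and 243 reads in overexpression-labelled libraries 1 and 2, against 216 and 145 in wildtype (-1.99, limma adjusted p = 0.000145). These pairs were chosen after their values were seen, and the difference within a pair was not tested.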
